A study of Homo sapiens with 118 samples.

Results

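The response of HepaRG cells to panobinostat at C4 (0.03963 µM) was compared with C1 (0.001468 µM), the lowest panobinostat concentration, with 3 libraries at each. The members were the 6 libraries that GEO's labels assign to these 2 groups, out of 118 in the series. The series held 8 inhibitors on plates E and H. Panobinostat is a hydroxamate inhibitor of histone deacetylases, and HepaRG is an established human hepatic line, used here in its differentiated state. The cells were exposed for 72 h with daily renewal, lysed and profiled by TempO-Seq, in which pairs of probes are ligated on their target RNA, amplified and counted. Both groups received panobinostat, and solvent controls were not used here, so a response already present at C1 would not be seen. The 3 libraries of a group came from 3 HepaRG batches, all on plate H, and the batches are given below as batch 1, 2 and 3. Panobinostat also had groups at C2 (0.004403 µM), C3 (0.01321 µM, 2 libraries, no batch 3) and C5 (0.084 µM), which entered the same fit and gave 14 libraries in all.

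Histone deacetylases remove acetyl groups from lysines of histone tails and of other proteins. Their inhibition leaves chromatin more acetylated, and such inhibitors both raise and lower transcripts, including genes that a tissue normally keeps silent. In hepatocytes the genes most often examined under such compounds are those of plasma proteins, cytochromes P450 and bile acid synthesis, together with cell cycle genes.

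Total counts lay between 3190600 and 4912102 in the C1 libraries and between 3290234 and 3639572 in the C4 libraries, and 12616 to 13221 features (rows of the probe table, named by gene symbol and probe) had at least 5 counts in them. Levels are given as CPM, the counts scaled to the TMM-adjusted library size. Albumin (ALB), the defining hepatocyte transcript, stood at 22097 ± 1292 CPM at C1 and 17802 ± 3577 CPM at C4 (SD, n = 3 each), and the difference did not pass the test (adjusted p = 0.35, edgeR). Of the markers of other cell types, the endothelial VWF and CDH5 and the leukocyte PTPRC and CD3E had 0 counts in all 6 libraries, as had the biliary EPCAM. Other members of these lists were present, with 9 to 53 counts per library for the endothelial KDR, 88 to 197 for the macrophage marker CD68 and 88 to 202 for the biliary KRT19. Of the symbols in the table, 6 of 12 endothelial, 7 of 14 leukocyte and 2 of 19 biliary markers were at 0 in all 6 libraries. Among the 14 panobinostat libraries, replicate 2 of C2 stood apart on the second principal component, and the common dispersion of the fit was 0.069 with it and 0.046 without it.

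The promoters of 4 features that changed are shown first, because 2 that rose (SLC16A12 and MYOZ2) and 2 that fell (RDH16 and CA9) differ widely in base composition. Each is the 250 bases before the start of the gene on GRCh38.p14, from RefSeq, read 5′ to 3′ on the gene's strand.

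SLC16A12 (chr10:89535595-89535844, minus strand): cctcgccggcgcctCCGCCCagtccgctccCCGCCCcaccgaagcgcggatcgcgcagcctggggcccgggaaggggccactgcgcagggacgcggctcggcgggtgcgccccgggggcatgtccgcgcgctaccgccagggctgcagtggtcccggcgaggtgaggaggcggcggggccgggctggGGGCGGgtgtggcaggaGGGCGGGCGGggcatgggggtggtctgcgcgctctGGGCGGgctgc
MYOZ2 (chr4:119135582-119135831, plus strand): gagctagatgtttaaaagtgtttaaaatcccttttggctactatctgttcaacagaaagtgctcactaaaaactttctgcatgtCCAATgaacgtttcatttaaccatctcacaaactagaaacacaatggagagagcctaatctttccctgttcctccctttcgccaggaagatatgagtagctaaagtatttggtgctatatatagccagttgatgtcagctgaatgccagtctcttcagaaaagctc
RDH16 (chr12:56957609-56957858, minus strand): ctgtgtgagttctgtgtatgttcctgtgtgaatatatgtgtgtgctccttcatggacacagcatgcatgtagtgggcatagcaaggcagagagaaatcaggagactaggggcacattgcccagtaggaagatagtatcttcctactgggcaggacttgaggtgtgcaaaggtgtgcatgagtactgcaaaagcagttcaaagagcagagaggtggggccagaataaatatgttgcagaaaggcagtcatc
CA9 (chr9:35673678-35673927, plus strand): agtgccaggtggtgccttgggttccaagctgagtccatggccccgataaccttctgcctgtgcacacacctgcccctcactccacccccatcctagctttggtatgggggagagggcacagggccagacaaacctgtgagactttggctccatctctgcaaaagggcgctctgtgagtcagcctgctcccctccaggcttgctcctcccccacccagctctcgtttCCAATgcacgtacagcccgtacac

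Capitals mark matches, on either strand, to the GC box GGGCGG, the CCAAT box CCAAT, the TATA box TATAAA, an HNF1 motif GTTAAT or an HNF4 motif CAAAGTCC. Neighbouring matches can overlap, as a pair of GC boxes does in SLC16A12. The SLC16A12 window was 81.2% G and C with 34 CpG and held 6 GC boxes. In contrast, the MYOZ2 window was 39.2% G and C with 2 CpG, and its one match was a CCAAT box. RDH16 had no CpG and no match to any of the letters searched, and CA9 had 5 CpG and a CCAAT box. Of 27305 promoter windows in the RefSeq table, 42.3% held a GC box, 33.0% a CCAAT box, 11.1% a TATA box, 6.2% the HNF1 motif and 1.0% the HNF4 motif. For the 9665 windows matched to symbols tested here, the shares were 64.5%, 35.6%, 6.0%, 3.8% and 0.9%. A match is a description of these letters. Fewer than 80% of the symbols called below had an entry in the table, so no share is given for them.

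At C4, 336 of 13104 features tested differed from C1 (2.56% called, which required both an edgeR adjusted p under 0.05 and a change of 1.5-fold or more). A rise was called for 152 (1.16%) and a fall for 184 (1.4%), and 214 of the 336 changed at least 2-fold. Before C4 the calls were few. C3 had 2 libraries, and C2 held the library that stood apart, with which the common dispersion of the fit was higher. Smaller changes at C2 and C3 may therefore have been missed. C2 against C1 gave 0 calls by edgeR (464 at an unadjusted p under 0.05) and 0 by DESeq2, and C3 against C1 gave 1 (0.00763%, with 796 unadjusted), while DESeq2 called 1 rise and 1 fall there. The edgeR call was SLC16A12, and it rose. At C5 the count against C1 was 2127 (16.2%). The C4 count depended strongly on single libraries. It was 25 without batch 1, 457 without batch 2 and 69 without batch 3. The fit without batch 2 also left out replicate 2 of C2, the library that stood apart, and the other 2 kept it. When any one of the 6 libraries was left out, the count lay between 113 (without the C1 library of batch 1) and 187 (without the C4 library of batch 3). Without replicate 2 of C2 it was 771, and all 336 were among those. A total of 21 features were called in each of the 3 fits that left out a batch, 10 of them higher and 11 lower at C4. The higher ones were SLC16A12, CNTN1 (first probe), MYOZ2, HLA-DQB1, HBG1, SUN3, SPP1, COL24A1, PRG4 and S100A8. The lower ones included CYP7A1, AFM, CA9, TRIM22 and S100A2, with ANXA8L1, EMP3, ABCA6 and LSP1, which are named here after their values were seen. Every other call below was lost in at least 1 of the 3 fits.

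**Figure D1:**
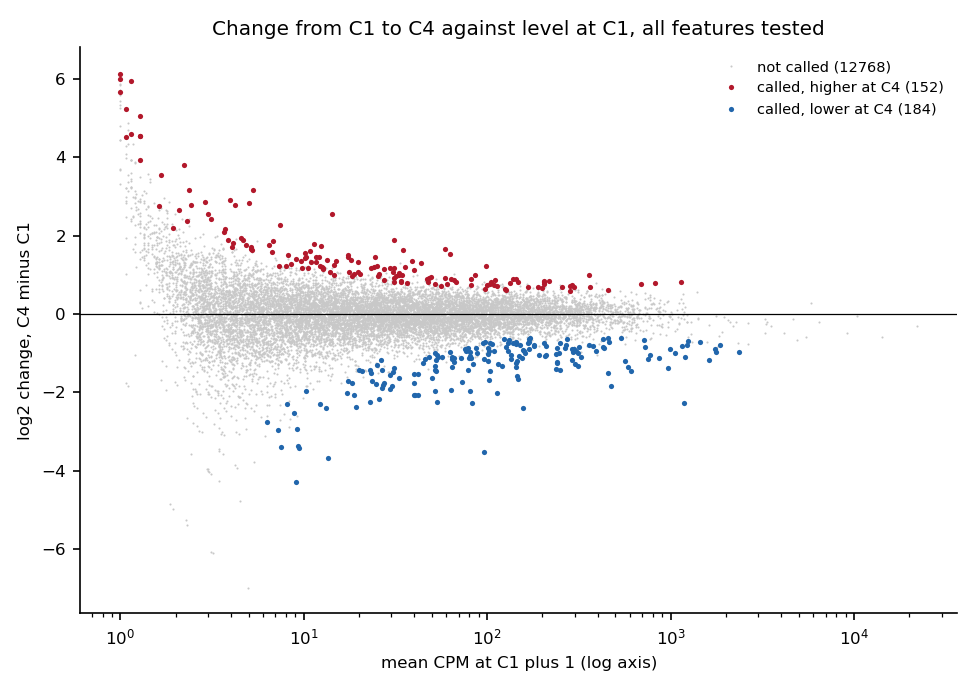
Fitted log2 change from C1 to C4 (vertical axis) against the mean CPM at C1 plus 1 (log axis) for all 13104 features tested; each point is a feature, red those called higher and blue those called lower at C4. The features called higher had a median level of 18.9 CPM at C1 and those called lower a median of 107 CPM, against 20.8 CPM over all features tested. A fall needs enough counts at C1 to be called, which bears on these medians.

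The median level at C1 was 18.9 CPM for the 152 that rose and 107 CPM for the 184 that fell, against 20.8 CPM over all features tested. A fall needs enough counts at C1 to be called and a rise does not, so the direction of the call itself bears on these medians. At most 3 counts were present in every C1 library for 10 of the rising features, and in every C4 library for 1 of the falling ones. A fold change against such a group is given as a bound, computed from 3 counts per library. All 336 had the sign of the change in each of the 3 batches and no overlap between the groups, which held for 42.9% and 26.1% of all features tested. The calls rest on these same libraries, so neither is a separate check on them. The same holds where it is given for single genes below.

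**Figure D2:**
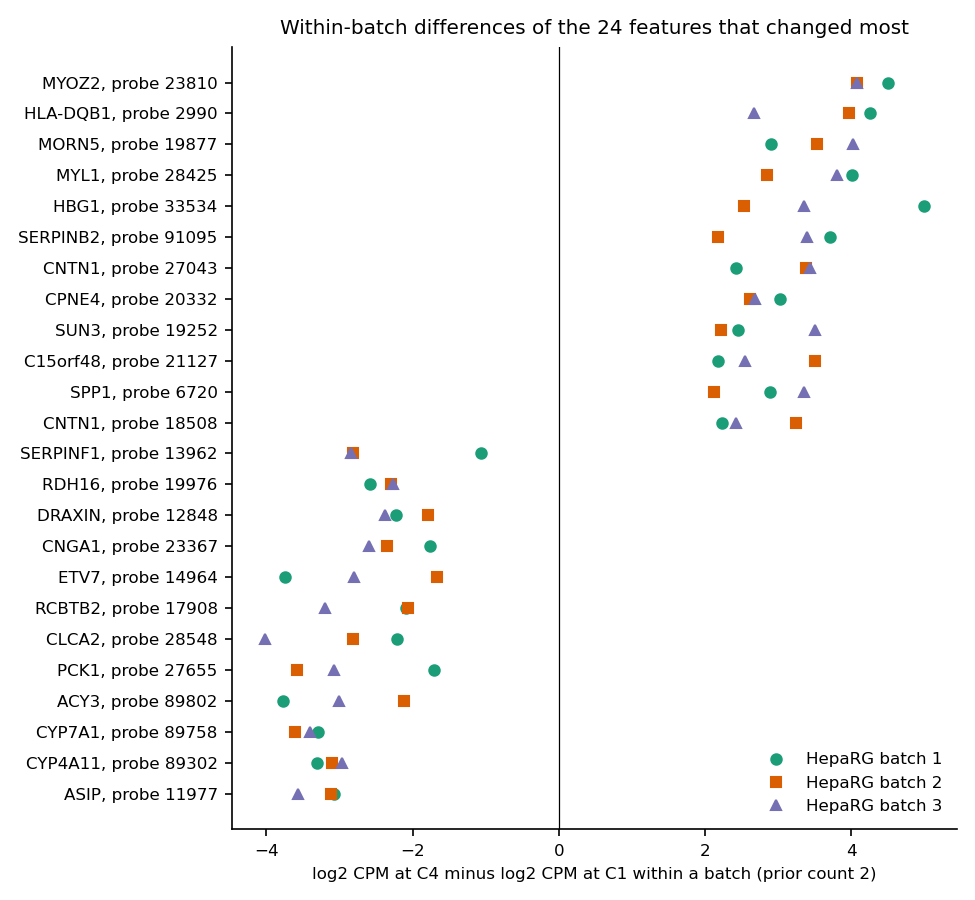
Difference in log2 CPM (prior count of 2) between C4 and C1 within each HepaRG batch for the 12 rising and 12 falling features with the largest changes among those called, of one sign in all 3 batches and with at least 20 counts in the higher group. Each symbol is a batch, and the side of 0 is set by that choice, so the figure shows the size of the differences and their spread.

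The features that rose most included transcripts of striated muscle, nerve and fetal blood. MYOZ2, a Z-disc protein of striated muscle, measured 0, 0.42 and 0 CPM in the C1 libraries of batches 1 to 3 and 11.1, 15.2 and 8.13 CPM in the C4 libraries. It was nearly silent at C1, and every C4 library lay above every C1 library. The level at C4 was at least 15.7-fold higher (edgeR adjusted p = 3.3e-05). MYL1, an alkali light chain of fast skeletal myosin, read 0, 0.84 and 0 CPM at C1 and 7.78, 9.21 and 6.68 CPM at C4 (log2 change 4.54, SE 0.92, adjusted p = 0.0085). It too was detected at C1 in a single library, without which the log2 change was 7.93. Leaving out the C1 library of batch 1 gave 3.95 and ended the call (adjusted p = 0.064). So did taking C2 as the reference (log2 change 2.60, edgeR adjusted p = 0.087). Of the muscle list (35 symbols, 5 features tested), these 2 rose and 0 fell (40% called, against 2.56% of all features). The list's median log2 change was 0.25. Both genes passed the filter on low counts only through libraries where they were higher than at C1. They could thus be called only as rises, and the count of rises is not read as a result about the list. Another sarcomere gene, NEB, which encodes nebulin, gave log2 changes of -0.40 and -1.17 at its probes, neither called.

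HBG1, the fetal gamma globin chain, measured 0, 2.09 and 1.56 CPM at C1 and 15.9, 14.6 and 20.6 CPM at C4. The groups were far apart, and the log2 change was 3.80 (SE 0.58, adjusted p = 7.5e-04). It ranged from 3.18 without the C1 library of batch 1 to 4.63 without that of batch 2, called in both. The sequence of HBG1 is nearly that of HBG2, so the counts may belong to either gene. CGA, the common alpha subunit of the glycoprotein hormones, was at 0 in all C1 libraries and at 1.5, 2.44 and 0.87 CPM at C4, at least 2.19-fold higher and just within the threshold (adjusted p = 0.04999, edgeR). In the list of globins and germ line genes (9 features tested), these 2 rose and 0 fell (22.2% called, against 2.56% of all features). CGA, at 0 in all C1 libraries, entered the test only through libraries where it was higher. It could thus be called only as a rise. The germ line antigens GAGE1 and MAGEA1 were measured at C1 and gave log2 changes between 0.03 and 0.15, none called, and near copies of each may share the counts.

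The neural adhesion protein contactin 1 (CNTN1) rose at both of its probes tested. At the first it measured 5.92, 3.14 and 3.74 CPM at C1 and 34.1, 37.4 and 45.3 CPM at C4, a 9.01-fold difference (log2 3.17, SE 0.32, adjusted p = 1.5e-05). The second probe read 2.96, 1.46 and 5.29 CPM at C1 and 15.9, 18.1 and 30.8 CPM at C4 (6.88-fold, adjusted p = 0.0027). At neither probe did the groups overlap. From the neuronal list (55 symbols, 20 features tested), 2 rose, 0 fell and the median log2 change was 0.64. They were NCAM1, a neural cell adhesion molecule (2.48-fold, from 42.8 CPM on average at C1), and RAB3C, a small GTPase of synaptic vesicles (2.58-fold). The share called was 10% of the list, against 2.56% of all features.

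SLC16A12, a carrier of the monocarboxylate transporter family that moves creatine, had the smallest p-value of all features. Its levels were 15.4, 11.7 and 12.5 CPM at C1 and 85.2, 75.3 and 71.5 CPM at C4. The C3 libraries stood between them, at 35.7 and 39.3 CPM, and the C5 libraries above, at 118, 114 and 117 CPM. C4 exceeded C1 5.83-fold (log2 2.54, SE 0.22, edgeR adjusted p = 1.2e-06), and the step from C4 to C5 did not pass the test (log2 0.59, adjusted p = 0.14). Osteopontin (SPP1), a secreted phosphoprotein of bile duct cells and bone, measured 4.02, 5.64 and 2.49 CPM at C1 and 32.9, 26.3 and 30.2 CPM at C4 (7.14-fold, log2 2.84, SE 0.35, adjusted p = 5.6e-05). It was the only feature called of 11 tested from the biliary and progenitor list (9.09%, against 2.56% of all features). The KRT19 probes of that list gave log2 changes of -0.07 and -0.23 and its SOX9 gave -0.08, none called. Over the features tested, the summed level of that list was 297 to 352 CPM in the C1 libraries and 292 to 374 CPM in the C4 libraries.

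PRG4, the lubricant proteoglycan of joints, measured 64.7, 58.7 and 50.5 CPM at C1 and 197, 192 and 165 CPM at C4 (3.18-fold, log2 1.67, SE 0.19, adjusted p = 4.0e-05). The fibrillar collagen COL24A1 measured 27.9, 31.6 and 30.5 CPM at C1 and 90.0, 111 and 130 CPM at C4 (3.68-fold, adjusted p = 3.3e-05). For both, each C4 library was well over every C1 library. HLA-DQB1, the beta chain of a class II histocompatibility molecule, measured 0, 0.21 and 0.62 CPM at C1 and 9.27, 10.8 and 6.68 CPM at C4. That is at least 12.2-fold higher (adjusted p = 1.1e-04), with the limit that related class II genes may share its probe. Starting from under 4 CPM in every C1 library, further rises were those of SUN3, a nuclear envelope protein of the testis (7.46-fold), C15orf48, a small mitochondrial protein (7.30-fold), and SERPINB2, an inhibitor of plasminogen activators (11.7-fold). MORN5 (at least 10.8-fold) and CPNE4, a calcium-dependent phospholipid-binding protein (8.90-fold), completed the 12. With C2 as the reference, edgeR no longer called MORN5 (log2 change 1.24, adjusted p = 0.27) or SERPINB2 (log2 change 2.28, adjusted p = 0.085). The calls of SUN3, C15orf48 and CPNE4 held there. Without the C1 library of batch 2 the log2 change of SERPINB2 was 4.91 in place of 3.55, and its call was lost without the C1 library of batch 1 (adjusted p = 0.081) or batch 3 (adjusted p = 0.063). For C15orf48 the log2 change was 3.56 in place of 2.87 without the C1 library of batch 1, and the call held.

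The calcium-binding proteins of the S100 family went both ways. S100A8 measured 61.7, 71.7 and 52.0 CPM at C1 and 144, 202 and 190 CPM at C4 (2.88-fold, adjusted p = 1.5e-04). Its partner S100A9 rose 2.54-fold (adjusted p = 0.015), and both rose again from C4 to C5 (log2 1.72 and 1.28). In contrast, S100A2 measured 439, 424 and 510 CPM at C1 and 139, 142 and 202 CPM at C4, a 2.84-fold fall (adjusted p = 6.3e-05), and S100A3 fell too. With KRT80, an epithelial keratin (3.69-fold higher), 3 of the 28 features tested in the cytoskeleton and S100 list rose and 2 fell. That was 17.9% called, against 2.56% of all features.

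**Figure D3:**
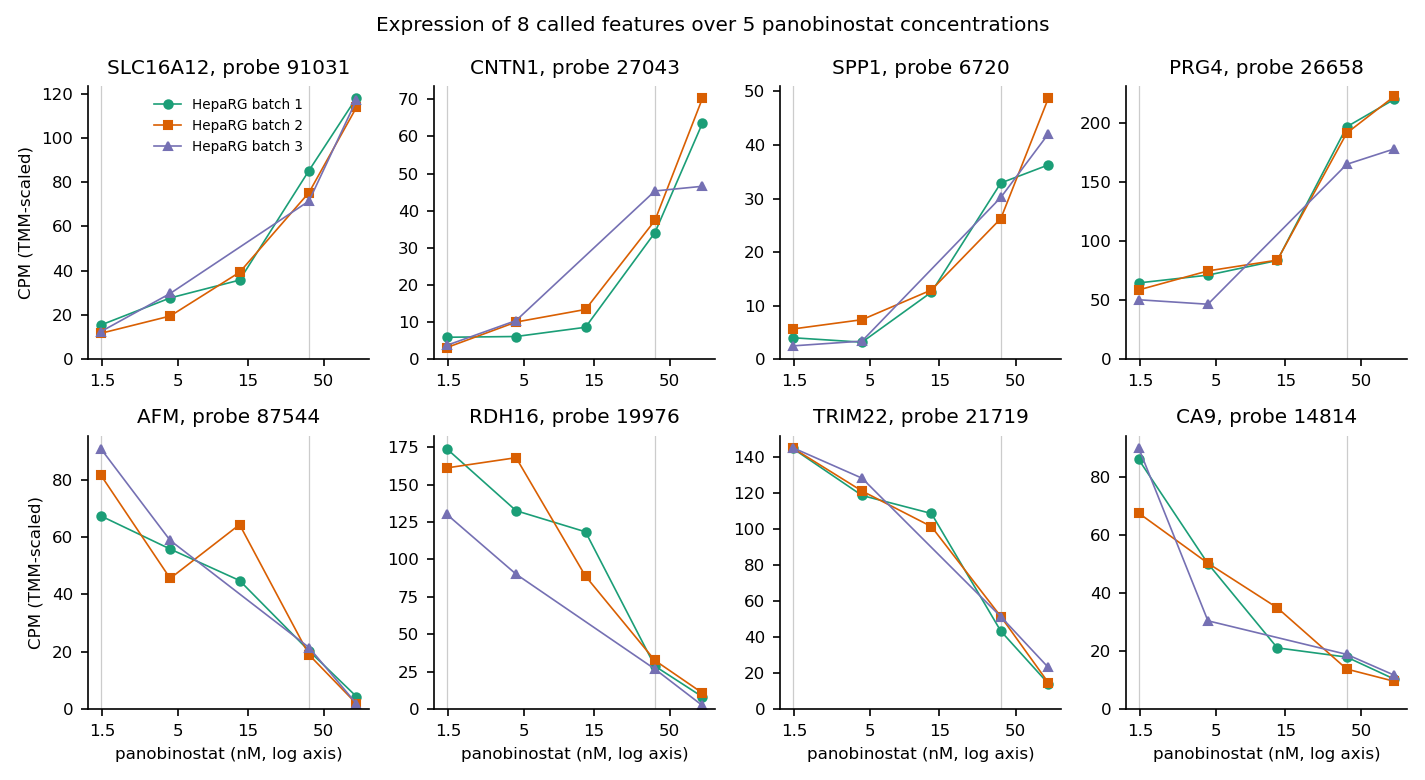
CPM of 4 rising (upper row) and 4 falling (lower row) features at the 5 panobinostat concentrations (log axis, nM); symbols and lines are HepaRG batches, and grey lines mark C1 and C4. In SLC16A12 the 2 C3 libraries sit at 35.7 and 39.3 CPM, between those at C1 and C4, and in AFM all 3 C4 libraries lie between 19.0 and 21.5 CPM.

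CYP7A1, the rate-limiting enzyme of bile acid synthesis from cholesterol, measured 95.4, 118 and 72.6 CPM at C1 and 9.27, 9.21 and 6.39 CPM at C4. All C1 libraries exceeded all C4 libraries by a wide margin, and the fall was 11.5-fold (log2 -3.52, SE 0.42, edgeR adjusted p = 5.2e-05). In these bulk lysates, fewer cells of a type and less RNA per cell cannot be told apart. CYP8B1 and CYP27A1, later enzymes of the same pathway, gave log2 changes of -0.19 (CYP8B1) and of -0.59 and 0.03 (the CYP27A1 probes), none called. In the list of bile acid synthesis and bile transport (25 features tested) 3 fell and 0 rose (12% called, against 2.56% of all features). With CYP7A1 these were ABCG8, a subunit of the sterol exporter (3.31-fold), and SLCO2B1, an uptake carrier of organic anions (2.44-fold).

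Of 29 cytochrome P450 features tested 7 fell and 1 rose (27.6% called), and the median log2 change was -0.52, against -0.01 over all features. CYP4A11, a fatty acid hydroxylase, fell from 16.5, 10.9 and 10.3 CPM to 1.20, 0.81 and 0.87 CPM (12.8-fold, adjusted p = 0.0058). The steroid and drug oxidases CYP3A4, CYP3A5 and CYP3A7, again near copies of each other, were lower by 2.33-fold, 2.14-fold and 2.06-fold, and CYP2E1, which oxidises ethanol, by 2.55-fold. The exception was CYP1A1, the enzyme induced through the aryl hydrocarbon receptor, which measured 4.44, 6.06 and 8.72 CPM at C1 and 36.8, 27.1 and 28.2 CPM at C4 (4.85-fold higher, adjusted p = 0.0024). The C4 libraries of CYP1A1 were all above the C1 libraries. Without replicate 2 of C2, 9 of the list fell and 1 rose.

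RDH16, a retinol and steroid dehydrogenase of liver whose promoter is printed above, measured 174, 161 and 130 CPM at C1 and 28.7, 32.5 and 26.7 CPM at C4 (5.29-fold lower, adjusted p = 5.6e-05). Enzymes of conjugation and other phase I and II reactions were called in 9 of 63 features (14.3%), 8 lower and 1 higher, with a median log2 change of -0.35. UGT1A9, a glucuronosyltransferase of phenols, fell 3.85-fold (adjusted p = 4.8e-04), with shared exons among the UGT1A genes as a limit. ALDH3A1, an aldehyde dehydrogenase, fell 2.39-fold, and the glutathione transferases GSTA1 and GSTA2 fell 1.87-fold and 2.29-fold. UGT2B11 was the one that rose (2.74-fold, adjusted p = 0.012), from 12.7, 6.90 and 13.7 CPM to 25.4, 30.9 and 34.0 CPM.

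Secreted plasma proteins fell without exception among those called. In the plasma protein list 8 of 38 features fell and 0 rose (21.1%), with a median log2 change of -0.46, and without replicate 2 of C2 the number was 12. Afamin (AFM), a vitamin E-binding protein, measured 67.4, 81.7 and 90.9 CPM at C1 and 20.3, 19.0 and 21.5 CPM at C4 (3.94-fold lower, log2 -1.98, SE 0.25, adjusted p = 8.4e-05). Fetuin A (AHSG) fell 3.38-fold, histidine-rich glycoprotein (HRG) 4.23-fold, and the hyaluronan-binding inter-alpha inhibitor chains ITIH1 and ITIH2 3.18-fold and 2.62-fold. Several abundant members were not called, namely APOA1, which had a log2 change of -0.20, APOB of -0.20, SERPINA1 of -0.13 and TTR of 0.27. Of the coagulation and complement list 10 of 42 features fell and 0 rose (23.8%), with a median log2 change of -0.48. They included prothrombin (F2, 2.01-fold), factor XI (F11, 2.51-fold), kininogen (KNG1, 2.42-fold), both vitronectin probes (VTN, 2.29-fold and 2.7-fold) and complement factor B (CFB, 1.87-fold). The complement factor H-related genes CFHR3 and CFHR4, which resemble other members of their family in sequence, were also among them.

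In the list of fatty acid handling 6 of 41 features fell and 0 rose (14.6%). Fatty acid synthase (FASN) fell 1.52-fold, near the fold threshold, with C1 libraries between 524 and 542 CPM and C4 libraries between 343 and 364 CPM. From amino acid, urea and glucose metabolism 4 of 47 fell and 1 rose (10.6% called, against 2.56% of all features). PCK1, the gluconeogenic carboxykinase, measured 5.07, 5.64 and 8.72 CPM at C1 and 1.20, 0 and 0.58 CPM at C4 (adjusted p = 0.048), a call lost in each of the 3 fits without a batch and in each of the 6 without a library. UPB1, which ends pyrimidine breakdown, rose 1.85-fold (adjusted p = 0.0093). The urea cycle enzyme CPS1 stood at 88.8 ± 28.0 CPM at C1 and 53.2 ± 15.9 CPM at C4 (SD, n = 3 each), not called (adjusted p = 0.16, edgeR). Of cholesterol synthesis 0 of 27 features were called by edgeR (0%, against 2.56% of all features). At an unadjusted p under 0.05 there were 5, and DESeq2 called 1, all lower. The median log2 change of the list was -0.16. Without replicate 2 of C2, 3 fell.

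Transcription factors of the hepatocyte were mostly not called, as were most features tested. The list had 40 features tested, of which 1 rose and 0 fell (2.5% called, against 2.56% of all features). Of the 40 changes 24 were negative and 16 positive, with a median log2 change of -0.12. HNF4A stood at 15.5 ± 5.6 CPM at C1 and 10.3 ± 2.7 CPM at C4 (SD, n = 3 each; log2 change -0.58, adjusted p = 0.58, edgeR). CEBPA was at 15.0 ± 3.4 and 6.10 ± 2.02 CPM (log2 change -1.29, adjusted p = 0.19, edgeR, n = 3 each). At such levels a change of this size was not resolved from the spread. The member that rose was NR2F1, the orphan receptor COUP-TF1 (2.09-fold, adjusted p = 0.041).

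TRIM22, an interferon-induced ubiquitin ligase, measured 145, 145 and 145 CPM at C1 and 43.4, 51.5 and 51.4 CPM at C4. The C1 libraries were almost identical and the C4 libraries clearly lower, a 2.98-fold fall (log2 -1.57, SE 0.19, adjusted p = 5.2e-05). ETV7, an interferon-responsive ETS factor, fell from 6.34, 7.11 and 11.2 CPM to 0, 1.90 and 1.16 CPM (adjusted p = 0.023), a call that of the fits leaving out 1 of the 6 libraries was kept only without the C4 library of batch 2 (log2 change -3.73 in place of -2.94). In the list of interferon and antigen presentation genes, which holds neither, 2 of 33 rose and 0 fell (6.06% called, against 2.56% of all features). They were HLA-E, a non-classical class I molecule (2.38-fold), and IFI6, an interferon-induced mitochondrial protein (1.83-fold). In that list 22 of the 33 changes were negative, and the median log2 change was -0.35. At an unadjusted p under 0.05 in edgeR, 3 features were higher and 8 lower at C4. Without replicate 2 of C2, 2 rose and 3 fell. CD3D, a chain of the T cell receptor complex, was the 1 feature called of 5 tested from the leukocyte list (20%, against 2.56% of all features). It fell from 20.9, 8.36 and 19.6 CPM to 6.28, 1.90 and 3.78 CPM (adjusted p = 0.034), while 7 of the list's 14 symbols had 0 counts in all 6 libraries. Over the features tested, the summed level of the leukocyte list was 81.9 to 96.0 CPM at C1 and 64.2 to 75.0 CPM at C4.

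CA9, a carbonic anhydrase induced by hypoxia, measured 86.3, 67.7 and 90.3 CPM at C1 and 17.9, 13.8 and 18.9 CPM at C4 (4.82-fold lower, log2 -2.27, SE 0.27, adjusted p = 5.0e-05). Its C3 libraries were already at 21.1 and 35 CPM, although C3 against C1 was not called for it. ASIP, the agouti signalling protein, measured 8.88, 6.27 and 9.03 CPM at C1 and 0.60, 0.27 and 0.29 CPM at C4, which is at least 9.37-fold lower. Other large falls from low levels were those of the aminoacylase ACY3 (10.8-fold), the chloride channel regulator CLCA2 (10.4-fold), RCBTB2 (7.82-fold), the cyclic nucleotide-gated channel subunit CNGA1 (6.72-fold), the axon guidance protein DRAXIN (5.72-fold) and the secreted serpin SERPINF1 (5.26-fold). For each of these 6 the call was lost when single libraries were left out. CNGA1 and DRAXIN lost it in each of the 6 such fits, RCBTB2 in all but the one without the C1 library of batch 2, ACY3 in all but those without the C1 library of batch 3 or the C4 library of batch 2, and SERPINF1 without the C1 library of batch 2 or the C4 library of batch 2 or 3. For CLCA2 only the fit without the C4 library of batch 1 kept it, with a log2 change of -4.74 in place of -3.38. For ACY3 the log2 change was -4.70 in place of -3.43 without the C4 library of batch 2.

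Mitotic genes fell in part. Of 31 features tested in the cell cycle list 4 fell and 0 rose (12.9%), with a median log2 change of -0.48. The mitotic kinases AURKA and BUB1 fell 2.84-fold and 2.19-fold, the kinesin KIF20A 2.41-fold and the spindle assembly factor TPX2 2.15-fold. BUB1 measured 78.7, 89.0 and 74.1 CPM at C1 and 36.5, 24.9 and 49.1 CPM at C4, with batch 2 lowest at C4. TYMS, the thymidylate synthase needed for DNA synthesis, measured 1357, 1237 and 1153 CPM at C1 and 852, 616 and 853 CPM at C4 (1.61-fold lower, adjusted p = 0.020).

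The counts over lists moved with the libraries that entered the fit. Without replicate 2 of C2, falls were called for 16 features of coagulation and complement, 15 of conjugation, 10 of amino acid, urea and glucose metabolism, 10 of the cell cycle, 9 of fatty acid handling and 5 of bile acid synthesis and transport. In a fit of all 118 libraries the falls were 4 for plasma proteins, 4 for coagulation and complement, 4 for conjugation, 3 for cytochromes P450, 2 for fatty acid handling and 0 for the cell cycle.

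**Figure D4:**
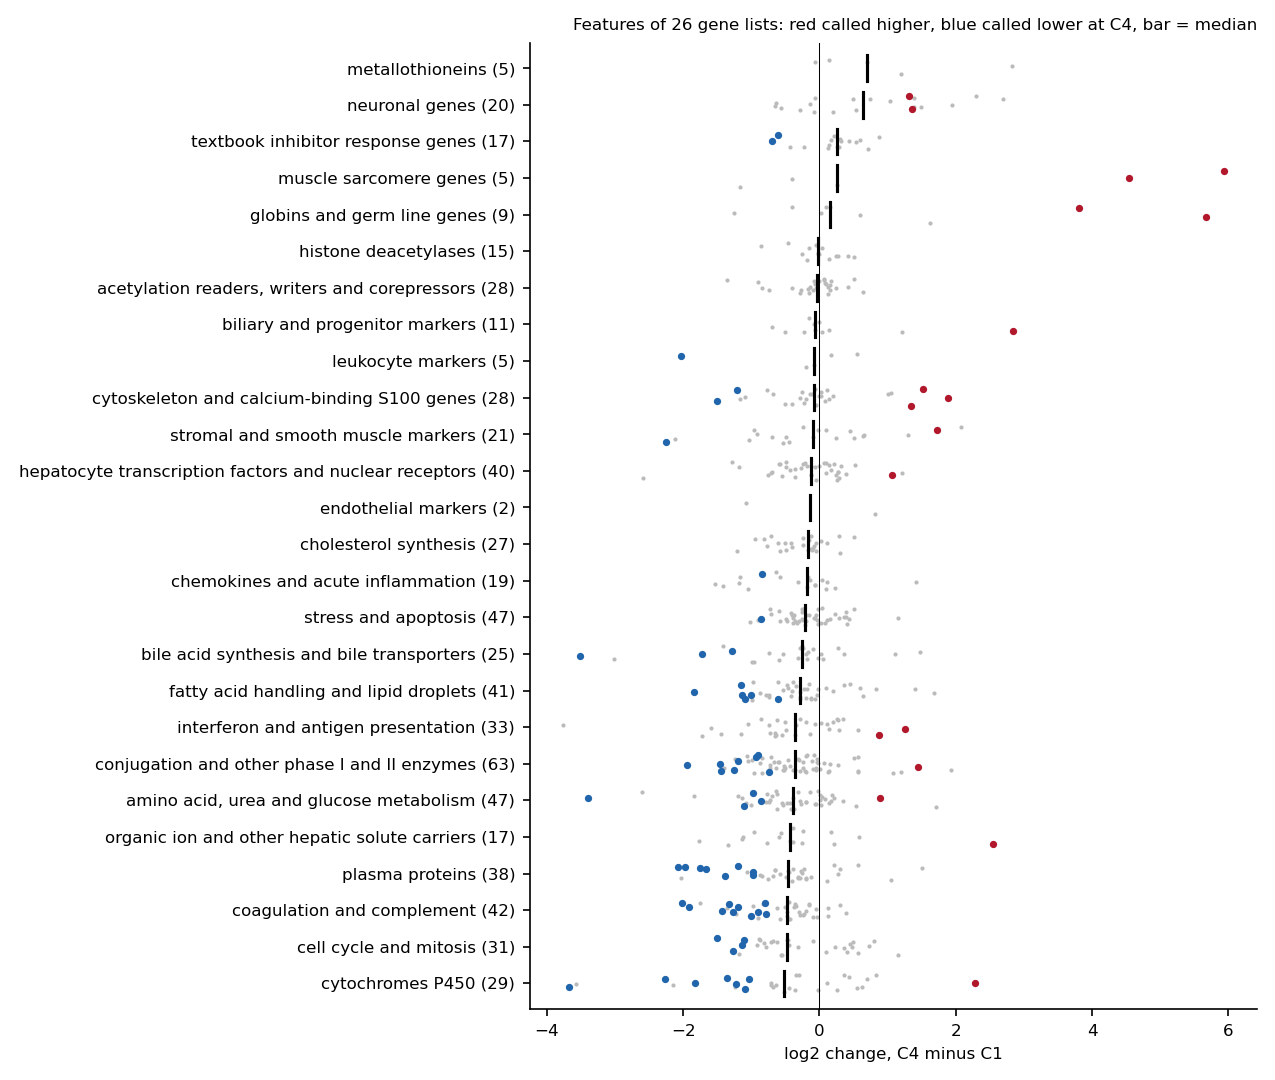
Fitted log2 change from C1 to C4 of the features tested in 26 gene lists (number of features in brackets), ordered by their median, which is the black bar; red points were called higher and blue points called lower at C4. The medians run from -0.52 for cytochromes P450 to 0.70 for metallothioneins, against -0.01 over all features tested.

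The deacetylases themselves were not called, as were most features tested. Of 15 features for HDAC genes 0 rose and 0 fell in the edgeR test (0% called, against 2.56% of all features). With so few features, 0 calls is near that share and is not read as a result about these genes. There were 0 at an unadjusted p under 0.05 and 0 called by DESeq2, and their median log2 change was -0.03. HDAC2, the best measured class I enzyme, stood at 377 ± 40 CPM at C1 and 454 ± 11 CPM at C4 (SD, n = 3 each), a log2 change of 0.27 with a 95% interval of -0.01 to 0.54. HDAC6, a cytoplasmic tubulin deacetylase, measured 708 ± 38 and 624 ± 10 CPM at its strongest probe (log2 -0.18, interval -0.47 to 0.11), and that probe fell between C4 and C5. Readers, writers and corepressors of acetylation gave 0 calls of 28 features in edgeR (0%, against 2.56% of all features). At an unadjusted p under 0.05 there were 3, and DESeq2 called 1, all lower at C4. Of genes that textbooks name as responding to such inhibitors, 2 of 17 features were called and both fell (11.8%), while 13 of the 17 changes were positive and the median log2 change was 0.25. DESeq2 called 1 rise and 2 falls, as did edgeR without replicate 2 of C2. They were TYMS and gelsolin (GSN), an actin-severing protein, which measured 509, 439 and 418 CPM at C1 and 273, 281 and 342 CPM at C4 (1.53-fold lower, adjusted p = 0.041). The linker histone H1F0 had a log2 change of 0.29 (interval -0.50 to 1.08), MYC of 0.53 (adjusted p = 0.14) and TXNIP, an inhibitor of thioredoxin, of 0.72 (adjusted p = 0.22). CDKN1A, the cyclin-dependent kinase inhibitor p21, was too low to be tested, with 2 to 6 counts per library.

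A few other lists gave between 0 and 2 calls, against 2.56% called over all features. HSPA5, the endoplasmic reticulum chaperone BiP, was the 1 of 47 stress and apoptosis features called (2.13%, near the share over all features) and fell 1.81-fold. CXCL2, a neutrophil chemokine, was the 1 of 19 in its list (5.26%) and fell 1.79-fold. Among stromal and smooth muscle markers (21 features tested, 9.52% called) COL1A1 rose 3.29-fold and COL3A1 fell 4.77-fold. The summed level of those features was 3710 to 4145 CPM at C1 and 3769 to 4094 CPM at C4. Of the 5 metallothionein features 0 were called by edgeR, 2 had an unadjusted p under 0.05 and DESeq2 called 1, both counts for higher levels at C4. MT2A had a log2 change of 0.70 (adjusted p = 0.090), and it rose from C4 to C5.

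C5 was tested directly against C4, which avoids C1. There 336 features were called as well (2.56%), by coincidence the same number, with 64 higher (0.488%) and 272 lower (2.08%) at C5. Both comparisons share the C4 libraries, so values are given side by side only. For SUN3 the log2 change was 2.90 from C1 to C4 and 1.27 from C4 to C5, and for C15orf48 it was 2.87 and then 1.62, with both steps called for each gene. For CNTN1 (first probe), SPP1, PRG4 and COL24A1 the second step had log2 changes of 0.63, 0.51, 0.17 and 0.40, none called. Of the falling features CYP7A1 fell by 3.52 and then 2.32 on the log2 scale, RDH16 by 2.40 and then 2.02, and TRIM22 by 1.57 and then 1.49, each called at both steps. The second step of CA9 was a log2 change of -0.68 (adjusted p = 0.27). In the lists, the plasma proteins had 22 features lower at C5 than at C4 and the coagulation and complement list 21, where 8 and 10 had been lower at C4 than at C1.

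The same 12 rising and 12 falling features were looked up in the other 7 inhibitors, each at its C4 against its own C1, in a comparison added after seeing the data. C4 was 0.5 µM for apicidin, 2.5 µM for mocetinostat, 60 µM for scriptaid, 30.87 µM for tacedinaline, 2712.9 µM for valproic acid and 10.929 µM for vorinostat. Scriptaid, tacedinaline and vorinostat were on plate E and the others on plate H. The concentrations differ between compounds, so no compound is ranked. All 12 rising features rose in mocetinostat (12.1% of all its features rose), tacedinaline (16.3%), valproic acid (5.51%) and vorinostat (15.6%). In apicidin 11 of them rose (11.1% of all) and in scriptaid 7 (2.2%). Trichostatin A gave 0 calls in edgeR and 0 in DESeq2 at its C4 (0.5079 µM, 2 libraries, 862 at an unadjusted p under 0.05 in edgeR), and 9 of the 12 could be tested there. Of those tested, 4 of 9 fell in apicidin (11.2% of all its features fell), 5 of 12 in mocetinostat (11.6%), 2 of 12 in scriptaid (2.67%), 7 of 10 in tacedinaline (16.4%), 7 of 12 in valproic acid (6.35%) and 7 of 10 in vorinostat (16.7%). CYP7A1 and RDH16 fell in all 6 of these compounds. DRAXIN rose in mocetinostat (log2 change 1.43), whereas it fell with panobinostat.

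**Figure D5:**
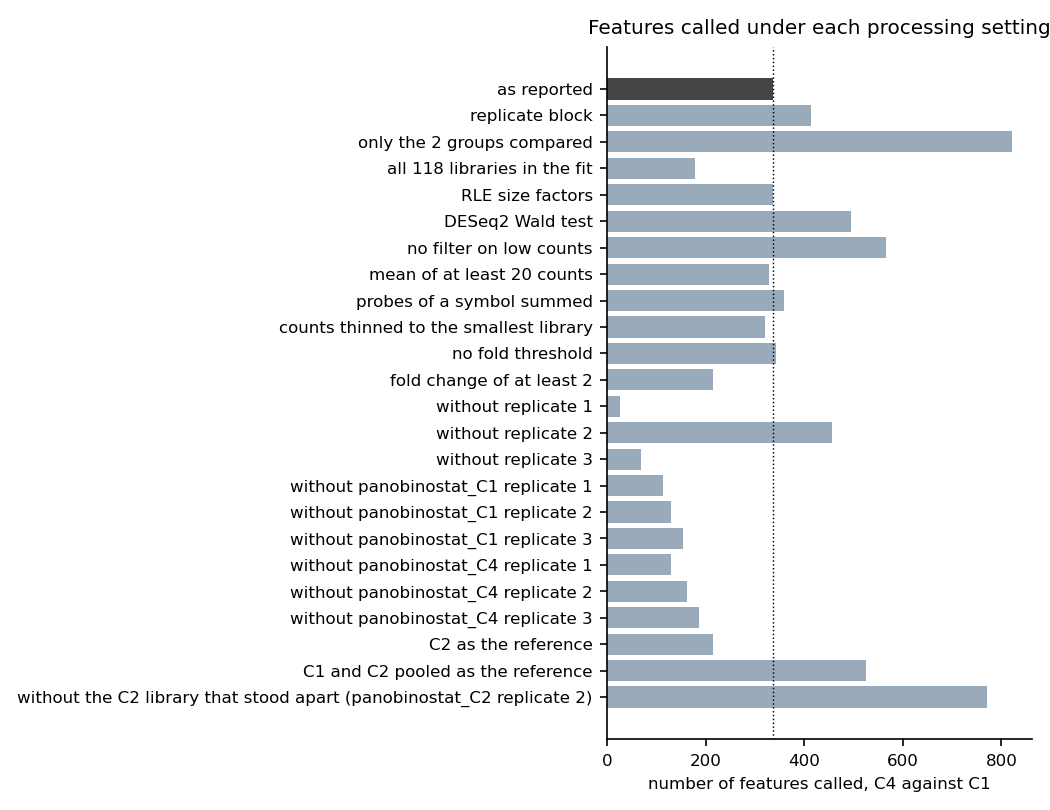
Number of features called at C4 against C1 under each processing setting; the dark bar and dotted line are the 336 reported. The bars run from 25 (without batch 1) to 821 (a fit of the 6 libraries alone).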

How the data were processed

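Differentiated HepaRG cells of 3 batches were lysed after exposure to panobinostat and profiled with the TempO-Seq human whole transcriptome panel. The deposited table holds raw counts of reads for each probe, not normalised by the authors. The submitters' processing notes name bcl2fastq 2.20.422, fastp 0.23.2, STAR 2.7.10b and DESeq2 1.38.0, without role or order; the annotation and genome build are not given in the sources used here. Of 22069 rows 22068 were used, since 1 lacked values in 88 libraries. Reads carry no molecular identifiers, so the floor of 3 counts covers counting error only. Ligated probes were amplified, and related transcripts can share a probe.

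The 14 panobinostat libraries were fitted in 5 groups with edgeR 4.0.16 in R 4.3.3 (filterByExpr, TMM, quasi-likelihood F test, no batch term), and p-values were adjusted by Benjamini and Hochberg over 13104 features. Calls required an adjusted p under 0.05 together with a change of 1.5-fold or more. The SE was derived from the log2 change and its F statistic, and intervals are 1.96 SE, which holds the spread between libraries. Log2 CPM used a prior count of 2. The script was tested on simulated data. The paper given with these data describes another experiment, and only its fold threshold was kept.

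Features named in the text were the 12 rising and 12 falling ones with the largest changes among those called, of one sign in all batches and with a mean of at least 20 counts in the higher group; the 3 of smallest p in each direction; up to 10 called in every fit without a batch; called members of 26 gene lists; members of the deacetylase and textbook lists; and the feature called at C3. Some uncalled members and marker genes are named for comparison, chosen after their values were seen. The libraries and lists were chosen with earlier results of these data known. Lists carry no test.

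Replicate numbers pair the libraries because the labels give them as HepaRG batches. As a check, the deviations from the group means were correlated between libraries, with a median of 0.05 over 26 pairs of one batch and -0.02 over 52 pairs of different batches. Whether batches are separate cultures beyond this is not stated, and p-values measure the spread between these libraries. Promoters were cropped to the 250 bases before the start, with the first RefSeq entry per symbol. Some features are not reported here.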

Additional observations from a re-analysis of the deposited data

How the results depend on the processing

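Of the settings tried at C4 against C1, where 336 features were called, the count moved over 1.5-fold in a fit of the 6 libraries alone (821), in a fit of all 118 libraries (178), without a filter on low counts (565), at a fold change of at least 2 (214), against C2 (215), against C1 and C2 pooled (526), and without replicate 2 of C2 (771, added after seeing the data). At C5 against C4 (336 called) the corresponding counts were 600 in the 2 groups alone, 158 with all 118 libraries, 204 at 2-fold and 650 without replicate 2 of C2. Leaving out a batch gave 25 to 457 calls at C4 against C1 and 71 to 289 at C5 against C4. The highest count of each came without batch 2, a fit that also left out replicate 2 of C2. Leaving out a single library of the groups compared gave 113 to 187 and 131 to 244. DESeq2 called 495 and 455. The replicate block, in which the batches pair the libraries, gave 414 and 395, and RLE size factors gave 336 and 328. The share of rises among the calls was 45.2% at C4 against C1, 57.3% with all 118 libraries, 29.0% without batch 3 and 35.3% against C2. For the 30 features named by size, p-value or stability, 588 of 682 alternative values kept the call, 94 ended it and none turned the direction. These counts include settings that could not end the call of these features, namely no fold threshold and a fold change of at least 2. Some of the features were also chosen for being called in the fits without a batch, or for having one sign in all batches. The counts therefore do not measure how stable the calls are in general. List members named in the text were not followed in this way. The causes were not tested. Thinning every library to the smallest gave 321 and 339 calls.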
